A study of Mus musculus with 2 samples.

Results

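The cells described here are thymic cells that carried transcripts of the macrophage elastase Mmp12, the ribonuclease Ear2, the epithelial adhesion molecule Epcam or E-cadherin (Cdh1), and that lacked the transcripts which set other groups of sorted cells apart. They were chosen on measured values: a cell needed at least 3 unique molecular identifiers (UMIs, each standing for 1 captured transcript) over these 4 genes. It could hold at most 1 UMI of Cd209d and Cd209e, 1 of Xcr1 and Clec9a, 2 of C1qa, C1qb and C1qc, 3 of Ccr7 and Fscn1, 1 of Siglech, 1 of Cd3d, Cd3e and Cd3g, and 0 of Mki67 and Top2a. The rule gave 301 cells, 111 with the Mgl2DTR hashtag and 190 with the WT hashtag, among 19019 cells with a single genotype hashtag and 28926 cells in all. Mgl2 took no part in the rule.

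The Mgl2DTR cells came from the thymus of 7-week-old Mgl2DTR_eGFP mice, in which, by the allele's name, Mgl2 is linked with the receptor for diphtheria toxin and with enhanced green fluorescent protein. These mice were given 500 ng of diphtheria toxin 48 h before. The WT cells came from wild-type mice of the same age, labelled B6WT, and the labels do not say whether these mice received toxin too. In both genotypes the thymus was digested with collagenase D, magnets took out cells with CD90.2, and a sort of live cells by their CD11c and CD11b staining gave the cells that were run as 1 pool on the 10x Chromium 3′ kit. Because no animals are named, each genotype is 1 hashtag group without replicates, inside a gene expression library that both genotypes share. No difference below has a replicate check, and no test was possible. Each range given after a value is an exact 95% interval that covers counting error only. Ratios are Mgl2DTR over WT.

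The genotype of each cell was read from an oligonucleotide tag put on the cells before pooling, and every comparison between genotypes rests on these 15-base barcodes, so they are shown here 5′ to 3′.
Mgl2DTR: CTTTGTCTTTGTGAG
B6WT: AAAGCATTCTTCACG
The remaining barcode has different names in the deposited files, among them uncategorized, and its cells were used in no comparison.
uncategorized: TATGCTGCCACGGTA
In the median selected cell the own barcode made up 96.1% of hashtag UMIs in Mgl2DTR cells and 97.4% in WT cells.

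Thymic dendritic cells present self-antigens to developing T cells and take part in deleting those that react too strongly. Type 2 dendritic cells carry Sirpa and often Mgl2, which encodes the galactose-binding lectin CD301b, and they respond to the cytokines interleukin-4 and interleukin-13. Epcam and E-cadherin are adhesion molecules of epithelia that Langerhans cells and some other dendritic cells also carry, while Mmp12 and Ear2 are known from several kinds of mouse macrophages and monocytes.

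Gate genes were unevenly spread over the 301 cells. Mmp12 (mm10, chromosome 9, 7344381 to 7369499, plus strand) was found in 8 Mgl2DTR cells with 51 UMIs and in 50 WT cells with 603 UMIs, and 1 WT cell held 171 of these. Ear2 (chromosome 14, 44102654 to 44103534, plus strand) was found in 82 Mgl2DTR and 146 WT cells. Epcam (chromosome 17, 87635979 to 87651129, plus strand) was found in 39 Mgl2DTR and 121 WT cells. Cdh1 (chromosome 8, 106603351 to 106670246, plus strand) was found in 36 Mgl2DTR and 92 WT cells. All 4 are protein-coding genes, and their levels chose the cells, so they are descriptions and not findings. Of the 60-base windows of the Ear2 transcripts, 32.7% also lie in transcripts of other genes, most often Ear10, so that Ear2 UMIs could in part come from its near copies; the shares were 0.214% for Mmp12 and 0% for Epcam and Cdh1.

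The most common single pattern was Ear2 with none of the other 3 genes, in 62 Mgl2DTR and 45 WT cells. Ear2 with Epcam and Cdh1 was seen in 6 Mgl2DTR and 38 WT cells, Epcam with Cdh1 alone in 15 and 19, and all 4 genes in 2 and 18. Mmp12 without Epcam or Cdh1 was seen in 0 Mgl2DTR and 14 WT cells. The cells were therefore described in 3 kinds: cells with both pairs of genes (24 Mgl2DTR, 98 WT), cells with Epcam or Cdh1 only (25 Mgl2DTR, 33 WT) and cells with Mmp12 or Ear2 only (62 Mgl2DTR, 59 WT). The first 2 kinds together, 49 Mgl2DTR and 131 WT cells, are called Epcam/Cdh1 cells below.

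As a share of single-hashtag cells, the selected cells made up 1.49% (1.23 to 1.80%) in Mgl2DTR and 1.64% (1.42 to 1.89%) in WT, a ratio of 0.911 (0.714 to 1.16) whose interval includes 1. Without cells of T cell transcripts in the denominator the ratio was 0.741 (0.581 to 0.941), and without selected cells holding over 20 neutrophil UMIs it was 0.763 (0.589 to 0.983), both with intervals below 1. The T gate, chosen by Cd3 genes, made up 5.56% of Mgl2DTR and 12.4% of WT single-hashtag cells. The kinds differed in direction. Cells with both pairs made up 0.323% (0.207 to 0.480%) in Mgl2DTR and 0.846% (0.687 to 1.03%) in WT, a ratio of 0.382 (0.234 to 0.601). Cells with Mmp12 or Ear2 only made up 0.834% in Mgl2DTR and 0.509% in WT, a ratio of 1.64 (1.13 to 2.38), and those with Ear2 alone had a ratio of 2.15 (1.44 to 3.23). Cells with Epcam or Cdh1 only had shares of 0.336% and 0.285% in Mgl2DTR and WT and a ratio of 1.18 (0.673 to 2.05). Cells of the Cd209d/e gate, which met the other limits but held at least 3 UMIs of the lectins Cd209d and Cd209e, were at 0.283% in Mgl2DTR and 1.60% in WT, a ratio of 0.177 (0.107 to 0.279).

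**Figure D1:**
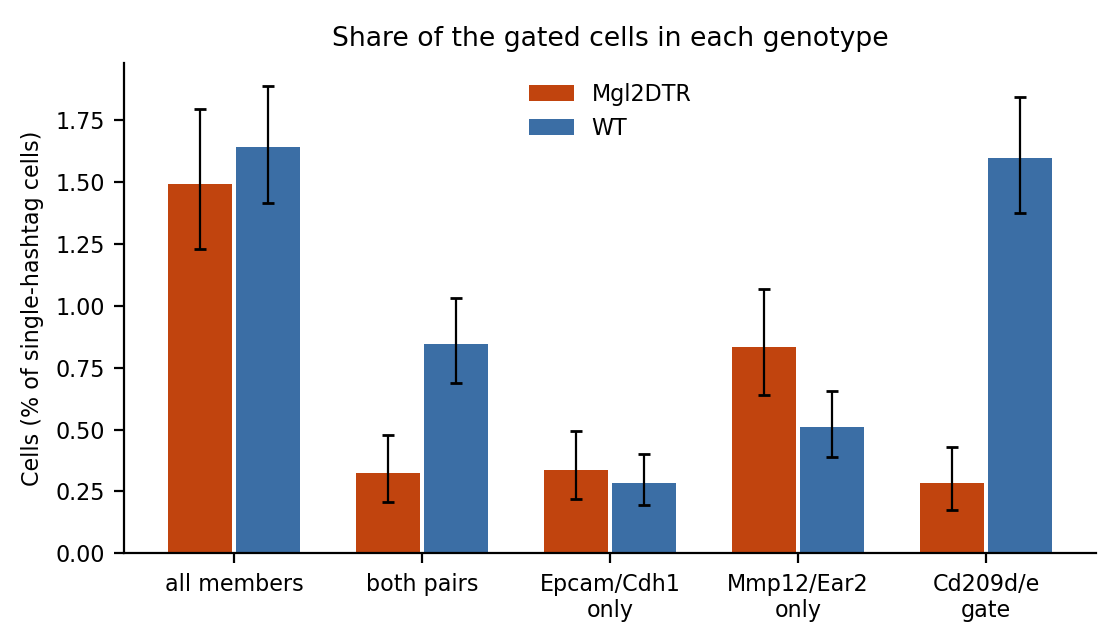
Share of single-hashtag cells, in percent, that fell in each kind of selected cell and in the Cd209d/e gate, with Mgl2DTR bars left of WT bars and exact 95% Clopper-Pearson intervals (counting error only). Cells with both pairs of genes stand at 0.323% in Mgl2DTR and 0.846% in WT, and cells with Mmp12 or Ear2 only at 0.834% and 0.509%.

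The higher share of cells with Mmp12 or Ear2 only did not hold under every way of counting. With each cell thinned to 2000 UMIs before selection its ratio was 0.540 (0.308 to 0.908), and without cells holding over 20 neutrophil UMIs it was 1.22 (0.808 to 1.82). It was 1.33 (0.917 to 1.94) without cells of T cell transcripts in the denominator and 1.36 (0.616 to 2.98) in cells with a hashtag margin, the annotation's score for the hashtag call, at or above the median. Median depths of these cells were 7431.5 UMIs in Mgl2DTR and 5351 in WT. The ratio of cells with both pairs was 0.214 after thinning and 0.382 without the neutrophil UMIs. Shares within 1 genotype sum to the whole, so they also move with all other cell types, and CD90.2 depletion and the sort can set them.

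Some markers of type 2 dendritic cells were found in Epcam/Cdh1 cells, and only a part of such markers is given here. The Mmp12 of the label was found in a minority of these cells. An Mmp12 UMI was held by 8 of 49 Mgl2DTR and 36 of 131 WT cells, and 25 Mgl2DTR and 33 WT cells held neither Mmp12 nor Ear2. The antigen-presenting class II gene H2-Aa stood at 7216 CPM (UMIs of a gene scaled to a fixed total over the same cells) in Mgl2DTR and 9022 CPM in WT Epcam/Cdh1 cells, and at 8419.6 CPM and 8293.6 CPM in cells of the cDC1 gate, chosen by Xcr1 and Clec9a. Flt3, the growth factor receptor of dendritic cells, stood at 59.0 CPM in Mgl2DTR and 107.6 CPM in WT Epcam/Cdh1 cells, and the dendritic cell factor Zbtb46 at 59.0 and 66.7 CPM. Sirpa was at 132 and 155 CPM in Mgl2DTR and WT, against 5.98 and 5.52 CPM in the cDC1 gate. Itgam, also a marker of type 2 dendritic cells, was at 82.5 CPM in Mgl2DTR but 11.4 CPM in WT Epcam/Cdh1 cells. Its UMIs were found in only 25 cells of both genotypes together. The cDC1 factor Irf8 was at 53.1 CPM in Mgl2DTR and 60.6 CPM in WT Epcam/Cdh1 cells, and at 1407.9 and 1377.9 CPM in the cDC1 gate. The lectin Cd209a was at 106 CPM in Mgl2DTR and 226 CPM in WT Epcam/Cdh1 cells (with a UMI in 28.6% and 47.3% of cells) and the NF-kB inhibitor Tnip3 at 197 and 264 CPM, both above the 1.86 and 3.27 CPM of Cd209a and the 4.33 and 7.41 CPM of Tnip3 in the cDC1 gate. Cd207, the langerin gene of Langerhans cells, had 0 UMIs in the selected cells of both genotypes. The Langerhans cell list without the gate genes summed to 853 CPM in Mgl2DTR and 898 CPM in WT Epcam/Cdh1 cells, with over 2 UMIs in 79.6% and 85.5% of cells, against 470 and 471 CPM in all single-hashtag cells. In cells with Mmp12 or Ear2 only it summed to 747 CPM in Mgl2DTR and 846 CPM in WT, with over 2 UMIs in 75.8% and 76.3% of cells. The list was thus not particular to Epcam/Cdh1 cells.

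Cells with Mmp12 or Ear2 only went against the label, most of all in Mgl2DTR. H2-Aa stood there at 1267 CPM in Mgl2DTR and 6189 CPM in WT, Flt3 at 1.91 and 25.03 CPM, and Zbtb46 at 7.62 and 25.03 CPM. Several of the genes with the highest WT ratio to the remaining cells are known from monocytes and macrophages. The lipoprotein receptor Lrp1 stood at 219 CPM in Mgl2DTR and 236 CPM in WT, the lectin Clec4a3 at 488 and 445 CPM, and the chemokine Ccl6 at 562 and 409 CPM. First by this ratio were the lysozyme Lyz1 (1.91 CPM in Mgl2DTR, 562 CPM in WT) and the fibronectin gene Fn1 (173 and 303 CPM), which took 79.2% and 78.9% of their WT UMIs from 1 cell. The peptidase Ace, also among the 20 highest, stood at 339 CPM in Mgl2DTR and 170 CPM in WT, and the growth factor receptor Csf1r at 351 and 437 CPM. Treml4 and Lyz2, which were not among these 20, stood at 171 and 5550 CPM in Mgl2DTR and at 86.2 and 5524 CPM in WT. In Epcam/Cdh1 cells Ace was at 0 CPM in Mgl2DTR and 3.79 CPM in WT, and Treml4 at 3.93 and 0 CPM. Genes of this kind were also split within WT: the 45 WT cells with Ear2 alone had Ace at 264 CPM, and the 14 WT cells with Mmp12 but no Epcam or Cdh1 had Ace at 0 CPM, H2-Aa at 8664 CPM and Mgl2 at 576 CPM. The cells with Mmp12 or Ear2 only are therefore called by these genes and not by the label.

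**Figure D2:**
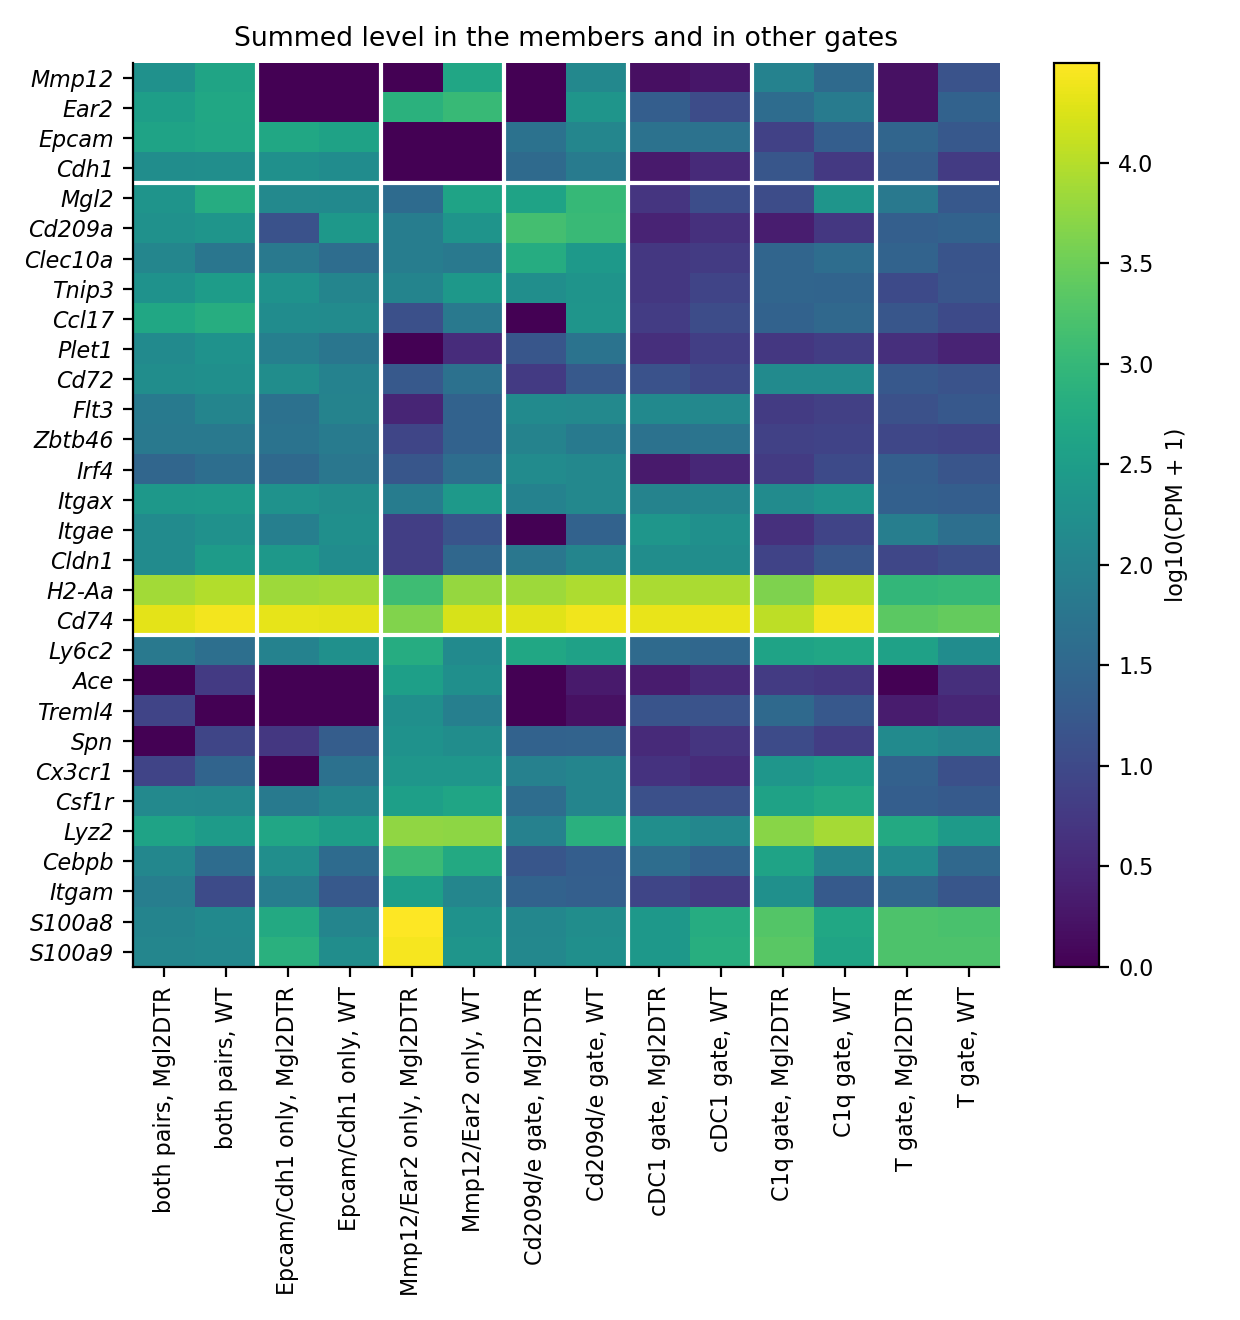
Levels of 30 genes (rows) in the 3 kinds of selected cell and in comparison gates (columns, Mgl2DTR left of WT within each), as log10 of CPM plus 1, shown by colour. Ace, Treml4 and Lyz2 are high in cells with Mmp12 or Ear2 only (Lyz2 at 5550 CPM in Mgl2DTR and 5524 CPM in WT), whereas H2-Aa and Flt3 are low in the Mgl2DTR cells of that kind (1267 and 1.91 CPM).

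Summed over the WT Epcam/Cdh1 cells, further genes that the rule did not use were high, though not every cell held them. The surface protein gene Plet1 stood at 114 CPM in Mgl2DTR and 167 CPM in WT Epcam/Cdh1 cells, against 3.90 and 8.81 CPM in the remaining single-hashtag cells. The chemokine Ccl17, a ligand of CCR4, stood at 326 CPM in Mgl2DTR and 523 CPM in WT Epcam/Cdh1 cells and at 41.3 and 96.8 CPM in the remaining cells. A Ccl17 UMI was found in 28.6% of Mgl2DTR and 38.9% of WT Epcam/Cdh1 cells. In WT the share was 50% of cells with both pairs and 6.06% of cells with Epcam or Cdh1 only. The membrane protein genes Ms4a4c (426 CPM in Mgl2DTR, 648 CPM in WT) and Ms4a6d (187 and 214 CPM) and the coreceptor Cd72 (159 and 155 CPM) were also among the 20 genes with the highest WT ratio to the remaining cells, as were the interferon-induced genes Ifit3 (153 and 140 CPM), Rtp4 (145 and 167 CPM) and Oasl2 (145 and 150 CPM). The transcription elongation factor Tcea3 stood at 19.7 CPM in Mgl2DTR and 129 CPM in WT Epcam/Cdh1 cells, with a UMI in 46 cells of both genotypes together. Of the other genes on that list, the immunoglobulin genes Igkc, Igha and Jchain took 98.5% to 99.6% of their WT UMIs from 1 cell, and Igkv1-110 and Mgp 100%. Plet1 was also higher in cells with both pairs (139 CPM in Mgl2DTR, 199 CPM in WT) than in cells with Mmp12 or Ear2 only (0 and 2.78 CPM), and so was the CD103 integrin gene Itgae (150 and 189 CPM, against 5.72 and 13.9 CPM).

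Mgl2 (chromosome 11, 70130329 to 70137550, plus strand), the gene named in the modified allele, checks the labels and was lower in the selected Mgl2DTR cells. Over all selected cells it stood at 104 CPM (84.8 to 125) in Mgl2DTR, with 107 UMIs, and 475 CPM (442 to 509) in WT, with 797 UMIs, a ratio of 0.218 (0.177 to 0.267). In Epcam/Cdh1 cells it stood at 173 CPM (139 to 213) in Mgl2DTR and 493 CPM (456 to 533) in WT, a ratio of 0.351 (0.277 to 0.439). The kinds of cell were unlike. In cells with both pairs the ratio was 0.348 (0.260 to 0.457). It was 0.985 (0.596 to 1.61) in cells with Epcam or Cdh1 only, where Mgl2 was at 132 CPM in Mgl2DTR and 134 CPM in WT. In cells with Mmp12 or Ear2 only it was 0.0891 (0.0522 to 0.144). That last ratio sets unlike cells side by side, since 14 WT and 0 Mgl2DTR cells of this kind held Mmp12. Mgl2 shares 9.89% of the 60-base windows of its transcripts with other genes, nearly all with its neighbour Clec10a, which was itself higher in Mgl2DTR Epcam/Cdh1 cells.

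Counted per cell, 46.9% of Mgl2DTR and 69.5% of WT Epcam/Cdh1 cells held an Mgl2 UMI, at median depths of 10758 and 10032 UMIs. With each cell thinned to 2000 UMIs the shares were 25% of 48 Mgl2DTR cells (13.6 to 39.6%) and 43.3% of 127 WT cells (34.5 to 52.4%), which left out 1 Mgl2DTR and 4 WT cells. These intervals overlap. In cells with Mmp12 or Ear2 only the thinned shares were 3.33% in Mgl2DTR (0.406 to 11.5%) and 21.4% in WT (11.6 to 34.4%). The T gate was chosen by Cd3 genes without a limit on neutrophil or monocyte genes, so it is not a set known to lack Mgl2. Its thinned shares were 1.12% in Mgl2DTR (0.305 to 2.84%) and 1.02% in WT. Before thinning they were 1.69% and 1.53%, at median depths of 3271 and 2831 UMIs. Mgl2 UMIs in Epcam/Cdh1 cells of both genotypes therefore lay above the T gate share, while the thinned interval of Mgl2DTR cells with Mmp12 or Ear2 only overlapped it.

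Mgl2 and Ccl17 levels were higher in cells that held more of the 4 gate genes. In cells with 1, 2, 3 and 4 gate genes, Mgl2 stood at 44.3, 178, 218 and 289 CPM in Mgl2DTR and at 233, 337, 534 and 1115 CPM in WT. Ccl17 stood at 9.49, 150, 847 and 949 CPM in Mgl2DTR and at 115, 136, 382 and 1831 CPM in WT. Cd209a (68.0, 90.8, 234 and 0 CPM in Mgl2DTR, 259, 181, 298 and 92.9 CPM in WT) and Tnip3 (125, 134, 331 and 41.3 CPM in Mgl2DTR, 147, 220, 233 and 627 CPM in WT) did not follow this order in both genotypes. At every number of gate genes Mgl2 was lower in Mgl2DTR, whereas Ccl17 was lower with 1 or 4 gate genes and higher with 3. That higher Ccl17 value rests mostly on 1 Mgl2DTR cell. All selected Mgl2DTR cells held 172 Ccl17 UMIs, and 97 without the most loaded cell. Cells with 1, 2, 3 and 4 gate genes held 6, 38, 105 and 23 of the 172, so the most loaded cell was among those with 3. The level with 3 gate genes was not computed without it. With 2 gate genes the Ccl17 intervals overlapped (106 to 206 CPM in Mgl2DTR, 107 to 170 CPM in WT). Some steps overlapped too: Mgl2 in Mgl2DTR with 2, 3 and 4 gate genes (130 to 238, 144 to 317 and 116 to 595 CPM). So did Ccl17 with 1 and 2 gate genes in WT and with 3 and 4 in Mgl2DTR. The counts of cells were 72, 26, 11 and 2 in Mgl2DTR and 61, 57, 54 and 18 in WT, so the last step rests on 2 Mgl2DTR cells. Cells with more gate genes were not matched for depth, and the part of depth in these levels was not tested.

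**Figure D3:**
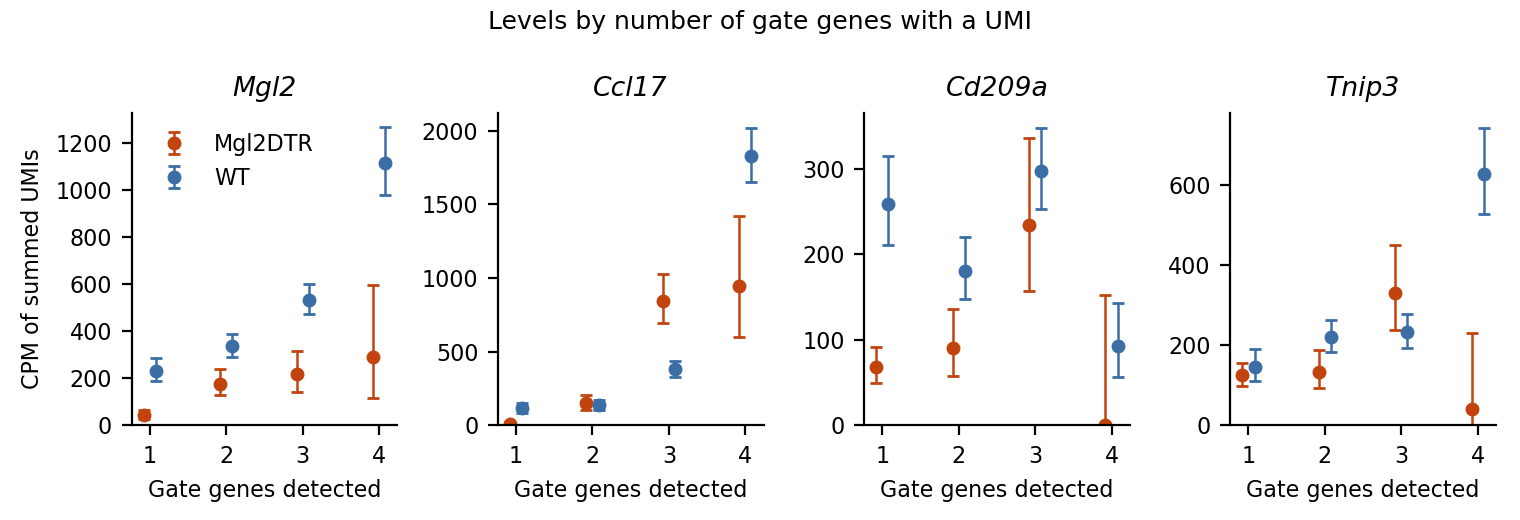
Levels of Mgl2, Ccl17, Cd209a and Tnip3 (CPM, vertical axes) against the number of the 4 gate genes detected in a cell (horizontal axes), for Mgl2DTR and WT, with exact 95% Poisson intervals (counting error only). Mgl2 is higher at each further gate gene, from 44.3 to 289 CPM in Mgl2DTR and from 233 to 1115 CPM in WT. In Mgl2DTR its intervals with 2, 3 and 4 gate genes overlap.

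Over all selected cells, 5294 genes were measured, that is, had at least 50 UMIs in at least 10 cells with no cell holding over 25% of them. Calls went by size: a higher gene had a ratio of 1.5 or more and an interval wholly above 1, and a lower gene had the inverse of this. By this rule 474 genes were higher in Mgl2DTR (8.95% of those measured) and 365 lower (6.89%), with a median log2 ratio of -0.02. The highest ratios belonged to genes of neutrophils and monocytes. The calcium-binding proteins S100a8 and S100a9 stood at 16161 and 13897 CPM in Mgl2DTR and at 145 and 154 CPM in WT. The next were Lrg1 (ratio 68.2), Ifitm1 (24.9), the lectin Clec4e (22.2), the protease inhibitor Slpi (21.6), Cd300e (19.5) and the activating receptor Trem1 (19.2). Besides Mgl2, the lowest ratios belonged to Tcea3 (0.200), Syce2 (0.212), the Ras activator Rasgrp3 (0.218), the thrombin receptor family member F2rl2 (0.222) and the water channel Aqp3 (0.241).

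The mix of kinds differed between genotypes. Cells with Mmp12 or Ear2 only made up 55.9% of the selected Mgl2DTR cells and 31.1% of the selected WT cells, and cells with both pairs 21.6% and 51.6%. At least 100 UMIs of S100a8 and S100a9 were found in 14 Mgl2DTR cells and 0 WT cells, and 13 of the 14 had Mmp12 or Ear2 only. Without cells holding over 20 neutrophil UMIs 396 genes were higher and 248 lower. The S100a9 ratio was then 0.924, which is no finding, because S100a9 is 1 of the genes by which those cells were left out. The 11 genes of the neutrophil list summed to 35169 CPM in Mgl2DTR and 405 CPM in WT, and the 11 genes of the monocyte list to 5055 and 1883 CPM. Within cells with Mmp12 or Ear2 only, 2 of 15 measured class II genes were higher in Mgl2DTR and 8 lower (median log2 ratio -0.96). Of all 2281 genes measured there, 229 (10.0%) were higher and 191 (8.37%) lower (median -0.01). This kind was itself unlike between genotypes: all 62 Mgl2DTR cells held Ear2 alone, while 14 of the 59 WT cells held Mmp12. Class II calls were not made for cells with Ear2 alone. The part of the mix in the differences over all selected cells was not tested, and the remaining comparisons use Epcam/Cdh1 cells alone.

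In Epcam/Cdh1 cells 4036 genes were measured, of which 199 were higher in Mgl2DTR (4.93%) and 147 lower (3.64%), with a median log2 ratio of 0.02. Leaving out, for each gene, the most loaded cell of each genotype gave 124 higher and 218 lower; this takes out 1 of 49 Mgl2DTR and 1 of 131 WT cells, which by its construction tends to lower ratios. The highest ratio was that of Itgam, which encodes CD11b, one of the proteins used in the sort, at 82.5 CPM in Mgl2DTR and 11.4 CPM in WT (7.26, 3.95 to 14.1). The adaptor Dok2 stood at 94.3 and 21.2 CPM (4.45, 2.73 to 7.36), and the transcription factor Cebpb, known from myeloid cells, at 142 and 37.1 CPM (3.81, 2.62 to 5.598). The urokinase receptor Plaur (3.30), the heat shock protein Hsph1 (3.198), the chemokine receptor Ccr1 (3.13), the inhibitory receptor Lilrb4a (3.03), S100a9 (2.95) and Ifitm6 (2.89) were also among the 12 highest. Of the same 12, Emilin2 (3.24) had a ratio of 0.891 in cells with a hashtag margin at or above the median, and the matrix protein Tgfbi (3.07) had 0.771 with a lower limit of 5 gate UMIs. Cd24a (235.8 CPM in Mgl2DTR, 74.2 CPM in WT, 3.18) took 24.8% of its UMIs from 1 cell and had a ratio of 1.90 without the most loaded cell of each genotype.

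Some of these genes were also higher in Mgl2DTR cells of the T gate. That gate was chosen by Cd3 genes and set no limit on neutrophil or monocyte genes. Cebpb stood there at 146 CPM in Mgl2DTR and 32.1 CPM in WT, Itgam at 29.2 and 15.2 CPM, Ccr1 at 28.0 and 7.19 CPM and Lilrb4a at 32.4 and 11.9 CPM. In Mgl2DTR the Cebpb level of the T gate was thus close to the 142 CPM of Epcam/Cdh1 cells, whereas the Itgam level of Mgl2DTR Epcam/Cdh1 cells was above both. Dok2 (66.6 and 59.4 CPM), S100a9 (1770 and 1736 CPM) and Cd24a (83.4 and 105 CPM) were closer between genotypes in the T gate. S100a9 was at 395 CPM in Mgl2DTR and 134 CPM in WT Epcam/Cdh1 cells, so the T gate was not poor in transcripts of myeloid genes. The part of free RNA in these calls, and of myeloid cells in the T gate, was not tested.

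The lowest ratio in Epcam/Cdh1 cells was that of Tcea3 (19.7 CPM in Mgl2DTR, 129 CPM in WT), at 0.153 (0.0719 to 0.288). It held in cells with both pairs (10.96 CPM in Mgl2DTR, 151 CPM in WT) and was not called in cells with Epcam or Cdh1 only (29.8 and 53.6 CPM). Tcea3 was also lower in the cDC1 gate, at 19.4 CPM in Mgl2DTR and 34.8 CPM in WT. The linker histone Hist1h1b (0.203), Dym (0.259), the ubiquitin ligase Herc2 (0.308), the chemokine Ccl4 (82.5 CPM in Mgl2DTR, 254 CPM in WT, 0.325), the Ras inactivator Rasa1 (0.338), the junction protein Krit1 (0.341) and the Cdc42 effector Cdc42ep3 (0.343) followed. Mgl2 (0.351), the kinase Map3k2 (0.354), the glycosyltransferase Mgat1 (0.356) and Comtd1 (0.364) completed the 12 lowest. Apart from Ccl4 and Mgl2, these genes had 4 to 10 UMIs in Mgl2DTR, which leaves wide intervals such as 0.123 to 0.833 for Map3k2.

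**Figure D4:**
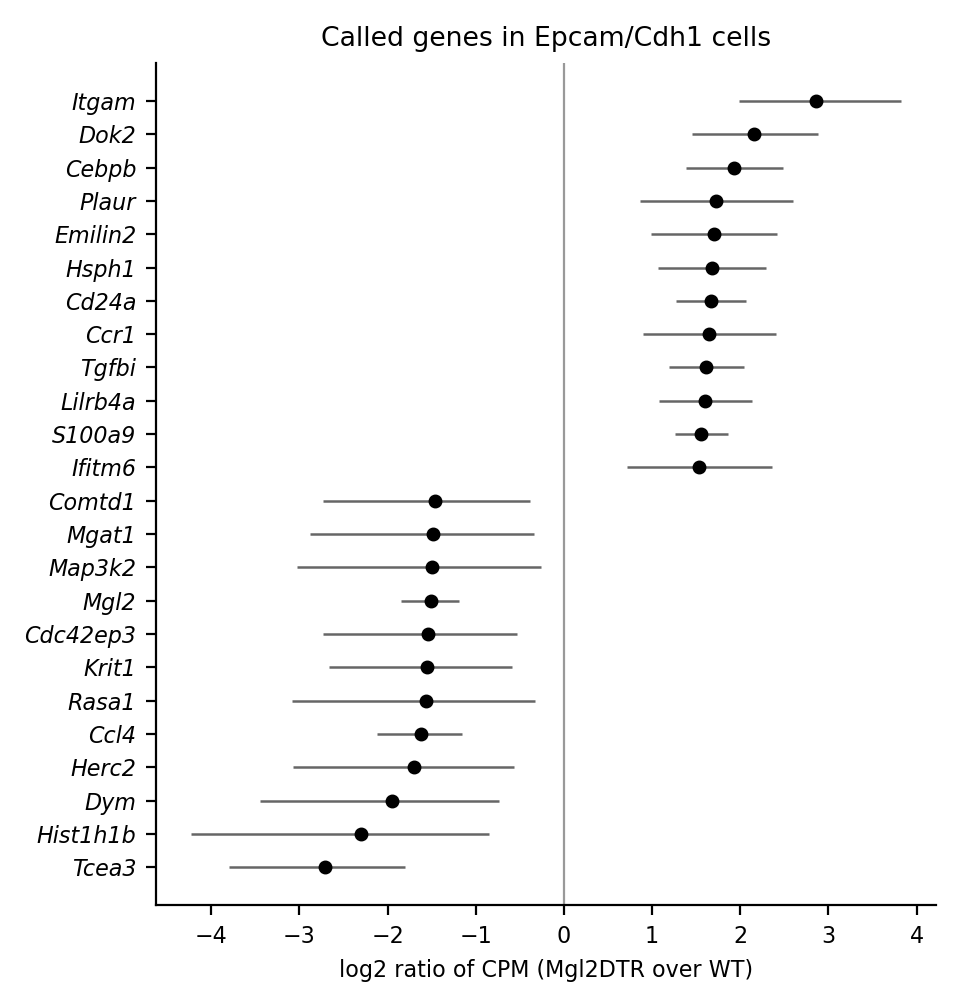
Log2 ratio of CPM, Mgl2DTR over WT (horizontal axis), in Epcam/Cdh1 cells for the 12 called genes with the highest and the 12 with the lowest ratio (rows), with exact 95% conditional intervals (counting error only) as lines. Itgam lies at a log2 ratio of 2.86 and Tcea3 at -2.71, and several lower genes have intervals that reach close to 0.

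Genes of type 2 dendritic cell identity differed in both directions in Epcam/Cdh1 cells. Of 20 measured genes of this list, 3 were higher in Mgl2DTR and 3 lower, with a median log2 ratio of -0.14 beside 0.02 over all measured genes. Shares over all measured genes were 4.93% higher and 3.64% lower. The lower ones were Mgl2, Flt3 (0.548, 0.357 to 0.817) and Cd209a (106 CPM in Mgl2DTR, 226 CPM in WT, 0.469, 0.344 to 0.628). Cd209a was at 186 and 221 CPM in cells with both pairs, where it was not called, and at 12.8 and 244 CPM in cells with Epcam or Cdh1 only, where 44.7% of its UMIs came from 1 cell. The higher ones were Itgam, Cd24a and the lectin Clec10a (92.4 CPM in Mgl2DTR, 53.0 CPM in WT, 1.74, 1.18 to 2.56). After thinning, Clec10a had 5 Mgl2DTR and 16 WT UMIs and a ratio of 0.827, and its transcripts share 6.73% of their 60-base windows with other genes, mostly Mgl2. Tnip3, at a ratio of 0.746 (0.591 to 0.934), missed the 1.5-fold limit, while it was called lower in cells with both pairs (0.640) and higher in cells with Epcam or Cdh1 only (1.77, 1.11 to 2.86).

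Among 15 measured genes of the response to interleukin-4 and interleukin-13, 2 were higher in Mgl2DTR Epcam/Cdh1 cells and 4 lower, with a median log2 ratio of 0.04. All measured genes were at 4.93% higher and 3.64% lower. The pair of CCR4 ligands went opposite ways. Ccl17 stood at 326 CPM in Mgl2DTR and 523 CPM in WT (0.623, 0.523 to 0.739), and Ccl22 at 161 and 68.2 CPM (2.36, 1.73 to 3.22). The Ccl17 ratio was 1.12 in cells with a hashtag margin at or above the median, and 0.750 in cells with both pairs, where it was not called. Of the Ccl22 UMIs of both genotypes together, 22.7% came from 1 cell. Over all selected cells, Ccl22 had 90 UMIs in Mgl2DTR and 105 in WT (ratio 1.39). Without the most loaded cell of each genotype it had 51 and 68 (1.22, 0.831 to 1.78). Ccl17 likewise went from 172 to 97 UMIs in Mgl2DTR and from 714 to 633 in WT, with ratios of 0.391 and 0.249. In Mgl2DTR, single cells thus held a large part of both genes. Besides Ccl17, Cd209a and Mgl2, the cytokine signalling inhibitor Socs1 was lower (27.5 CPM in Mgl2DTR, 53.0 CPM in WT, 0.519), and besides Ccl22, Clec10a was higher.

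Presentation genes differed little in Epcam/Cdh1 cells, where 4.93% of all measured genes were higher in Mgl2DTR and 3.64% lower. Of 16 measured class II genes 1 was higher in Mgl2DTR, the protease Ctsd, and 0 lower, with a median log2 ratio of -0.19; H2-Aa had a ratio of 0.80 (0.771 to 0.830) and the invariant chain Cd74 0.827. Of 17 class I genes 1 was lower, the class I activator Nlrc5, and 0 higher (median -0.18). Genes of dendritic cell activation and homing included 1 higher gene, the costimulatory receptor Cd40 (1.52, 1.04 to 2.19), and 1 lower, Marcks, of 14 measured (median -0.07). Of 19 NF-kB and inflammatory genes, the inflammasome sensor Nlrp3 was higher and the inhibitors Nfkbia (271 CPM in Mgl2DTR, 455 CPM in WT, 0.597) and Nfkbie lower. The cytokine Il1b, at 639 CPM in Mgl2DTR and 686 CPM in WT, was not called in Epcam/Cdh1 cells as a whole but was lower in cells with both pairs (394 and 820 CPM, 0.481) and higher in cells with Epcam or Cdh1 only (923 and 228 CPM, 4.05).

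Stress and immediate early genes differed in both directions. Of 22 measured in Epcam/Cdh1 cells 7 were higher in Mgl2DTR and 2 lower, with a median log2 ratio of 0.10. Over all measured genes of these cells 4.93% were higher and 3.64% lower. The transcription factor Fos stood at 1152 CPM in Mgl2DTR and 564 CPM in WT (2.04, 1.83 to 2.28), the phosphatase Dusp1 at 472 and 250.0 CPM (1.89, 1.59 to 2.23), and Atf3 at 593.5 and 387 CPM (1.53, 1.33 to 1.77); Fosb, Hsp90aa1, Hspa8 and Klf6 were the other higher ones. The heat shock genes Hspa1a (88.4 CPM in Mgl2DTR, 148.5 CPM in WT, 0.596) and Hspa1b (0.591) were lower. In the T gate Fos stood at 340 CPM in Mgl2DTR and 152 CPM in WT and Dusp1 at 511 and 166 CPM, so these genes were higher in Mgl2DTR in cells of the T gate too. With cells thinned before selection the Atf3 ratio was 0.990 and those of Hspa1a and Hspa1b were 1.24 and 1.21.

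Counts of the further lists in Epcam/Cdh1 cells stand beside 4.93% higher and 3.64% lower over all measured genes. Adhesion and junction genes included 2 higher (Cd44 and Itga4) and 3 lower (Cd9, Itgae and Tspan33) of 15 measured, with a median log2 ratio of -0.25. Interferon response genes included 3 higher (Ifi205, Ifitm2 and Rsad2) and 1 lower (Stat2) of 24 (median -0.17). Of 27 dendritic cell transcription factors Cebpb alone was called, and of 12 glycolysis genes Pgam1 and Pkm were higher. Of 5 measured chemokines Ccl22 was higher and Ccl17 and Ccl4 lower (median -0.50), and of 10 C-type lectins and pattern receptors Clec10a and Clec4a3 were higher and Cd209a lower (median 0.37). Of 13 cell cycle genes Ccnd2 and Stmn1 were higher and 0 lower, in cells chosen to lack Mki67 and Top2a. Of 11 genes of lipid handling and efferocytosis 0 were called in either direction. Transcripts that mark other cells were present in Epcam/Cdh1 cells. The monocyte list summed to 1755 CPM in Mgl2DTR and 1573 CPM in WT, with over 2 UMIs in 91.8% and 86.3% of cells. The list of plasmacytoid dendritic cells summed to 910 CPM in Mgl2DTR and 1088 CPM in WT, with over 2 UMIs in 87.8% and 86.3% of cells. The cDC1 list summed to 574 and 829 CPM, with over 2 UMIs in 85.7% and 92.4% of cells. The T cell list summed to 33.4 CPM in Mgl2DTR and 41.7 CPM in WT, and the neutrophil list to 808 and 358 CPM, with 1 Mgl2DTR cell holding 175 UMIs of S100a8 and S100a9. The epithelium list without the gate genes summed to 136 CPM in Mgl2DTR and 35.6 CPM in WT, and over 2 UMIs of it were found in 2 of 49 Mgl2DTR and 1 of 131 WT cells. The part of these transcripts in the differences was not tested.

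**Figure D5:**
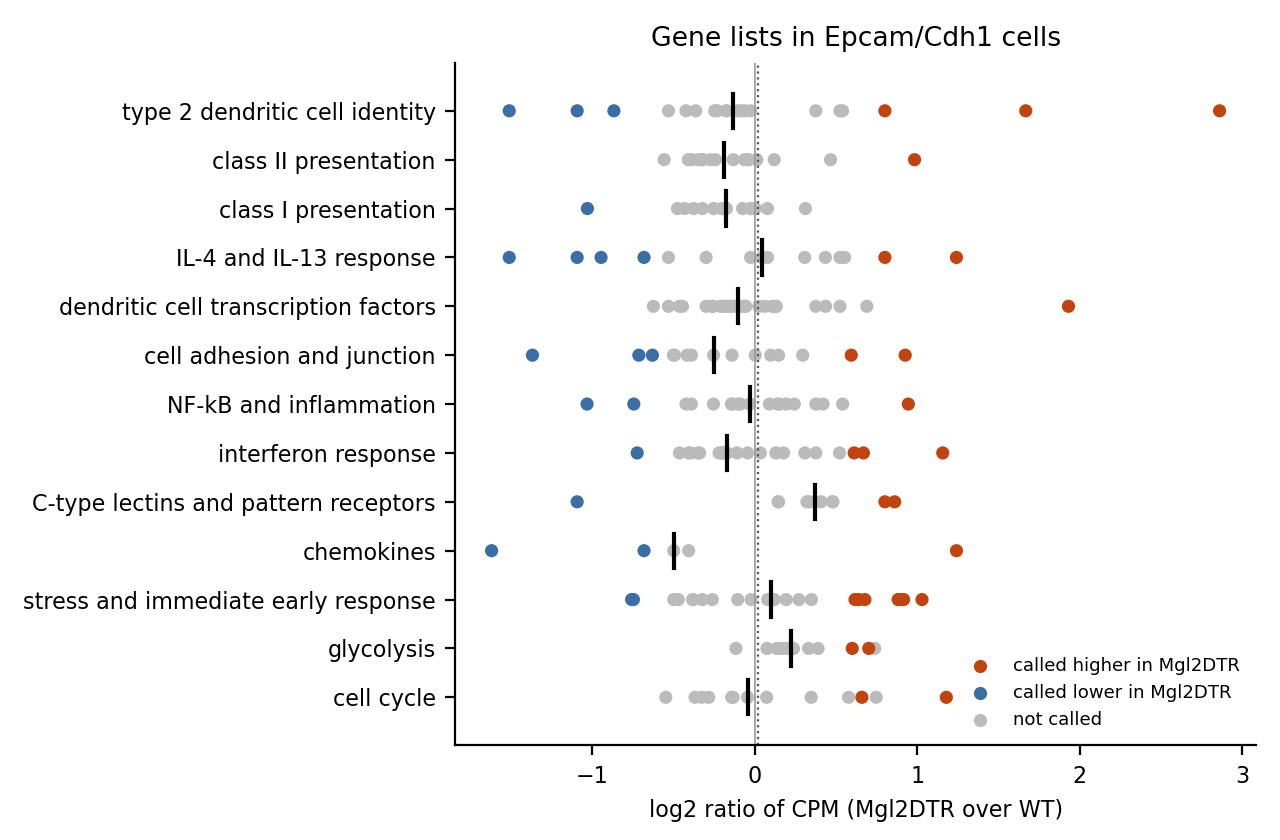
Log2 ratio of CPM, Mgl2DTR over WT (horizontal axis), of the measured genes of 13 lists (rows) in Epcam/Cdh1 cells; points are genes, coloured by whether they were called higher, lower or neither, black bars are list medians and the dotted line is the median of all measured genes (0.02). List medians run from -0.50 (chemokines) to 0.37 (C-type lectins), and the stress and immediate early list has 7 higher and 2 lower genes of 22. Of all measured genes 4.93% were higher and 3.64% lower.

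At the limit of the rule, 21 Mgl2DTR and 31 WT cells held exactly 3 gate UMIs, and 50 Mgl2DTR and 53 WT cells that met all other limits held exactly 2 and were left out. In cells with 3 UMIs Mgl2 stood at 92.4 CPM in Mgl2DTR and 146 CPM in WT, Ace at 87.3 and 99.1 CPM, and H2-Aa at 3897 and 4465 CPM. In cells with 2 UMIs Mgl2 stood at 33.7 CPM in Mgl2DTR and 278 CPM in WT, Ace at 96.6 and 57.4 CPM, and H2-Aa at 2281 and 7063 CPM. Cells on both sides of the limit thus held transcripts of Ace and Mgl2 alike.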

How the data were processed

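Cells of both genotypes shared 1 run of droplets, from which a gene expression library and a hashtag library were made. The submitters' processing notes name Cell Ranger 6.0.0, Seurat 4.0.4 and the build mm10; aligner settings and gene annotation are not given in the sources used here. Deposited gene and hashtag tables hold raw counts, as whole UMIs in each cell, of 20451 genes and 28926 cells, per the file headers, and the deposited annotation gives a hashtag call and a score, the hashtag margin. UMI totals differed from the annotation in 0 cells, and 0 barcodes occurred in both gene tables. The third hashtag has different names in the deposited files, and its cells entered no comparison. Cells with a pair of hashtags (9829) or none (78) were left out. No doublet caller was run, and doublets of 1 genotype cannot be seen by hashtag.

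Single-hashtag cells numbered 7433 in Mgl2DTR (71521759 UMIs, median 6930 per cell) and 11586 in WT (116719748 UMIs, median 7820). The selected cells held 1033747 UMIs in Mgl2DTR and 1679653 in WT, with medians of 8959 and 8843 per cell. Summed UMIs of each genotype were scaled to CPM, with exact Poisson, Clopper-Pearson and conditional intervals at the 95% level. With 1 hashtag group per genotype no count model was fitted. Comparison gates used the same limits with a lower limit on their own genes. Named were the 12 called genes with the highest and the 12 with the lowest ratio (gate, sex-linked and mitochondrial genes left out), called genes of the lists, and the 20 genes highest in WT selected cells against the remaining WT cells among those of at least 100 CPM. The members, lists and most alternatives were chosen with earlier results of these data known. Scripts, tested on simulated data, ran in Python 3.11.15 with pandas 2.3.3, scipy 1.17.1, numpy 2.4.6 and matplotlib 3.10.9. Positions and the 60-base windows came from the GENCODE mm10 annotation and transcripts, in which 20094 gene names matched.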

Additional observations from a re-analysis of the deposited data

Results flagged for a closer look

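The shares of 2 kinds of selected cell moved opposite ways between genotypes: the ratio of Mgl2DTR over WT was 0.382 for cells with both pairs of gate genes and 1.64 for cells with Mmp12 or Ear2 only, and the difference between these ratios was not tested. The rule also selected cells among those with a pair of hashtags, which no comparison used: 0.715% of cells with the Mgl2DTR and B6WT hashtags (34 of 4755, 0.496 to 0.998%), 0.476% of cells with the B6WT and the third hashtag, and 0.434% of cells with the Mgl2DTR and the third hashtag. Of the 78 cells with no hashtag call, 0 were selected.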

How the results depend on the processing

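No paired analysis was possible because each genotype is 1 hashtag group without replicates, and no result comes from a test. With each cell thinned to 2000 UMIs before selection, the share ratio was 0.529 for all selected cells (main 0.911), 0.214 for cells with both pairs (main 0.382) and 0.540 for cells with Mmp12 or Ear2 only (main 1.64). The Mgl2 ratio was then 0.121 (0.193 in Epcam/Cdh1 cells). The calls were 68 higher and 49 lower (17 and 22 in Epcam/Cdh1 cells) of far fewer measured genes. Of these, 35 of the higher and 19 of the lower genes were also main calls (1 and 3 in Epcam/Cdh1 cells). The ratios of Clec10a and Cd24a were 0.766 and 0.858. In Epcam/Cdh1 cells Cd24a was at 0.888, Atf3 at 0.990, Hspa1a at 1.24 and Hspa1b at 1.21. With cells thinned after selection, 125 genes were higher and 94 lower (36 and 26 in Epcam/Cdh1 cells, with Clec10a at 0.827). Main calls made up 94 of these higher and 55 of these lower genes (14 and 9 in Epcam/Cdh1 cells). With at most 2 UMIs in each list of another cell type, 3 Mgl2DTR and 14 WT cells were left. The share ratios were then 0.334 for all and 0.142 for cells with Mmp12 or Ear2 only. By this limit 4 genes were higher and 14 lower, and 0 of either were main calls. H2-Aa was at 1.31 and Fos at 0.661, and Epcam/Cdh1 cells gave no value. With a hashtag margin at or above the median, 258 genes were higher and 125 lower (115 higher in Epcam/Cdh1 cells), the Mgl2 ratio was 0.327, and Emilin2 and Ccl17 were at 0.891 and 1.12 in Epcam/Cdh1 cells. With a lower limit of 5, the Mgl2 ratio was 0.150 (0.259 in Epcam/Cdh1 cells) and Tgfbi was at 0.771. With Epcam/Cdh1 cells alone the share ratio was 0.583, 199 genes were higher and 147 lower, and the Mgl2 ratio was 0.351; it was 0.348, 0.985 and 0.0891 in cells with both pairs, Epcam or Cdh1 only, and Mmp12 or Ear2 only. At least 200 UMIs per gene gave 142 higher and 109 lower (38 and 29 in Epcam/Cdh1 cells), a fold of at least 2 gave 231 and 130 (59 and 60), at least 20 UMIs gave 303 higher in Epcam/Cdh1 cells, and leaving out the most loaded cells 124. S100a9 was at 0.924 with at most 20 neutrophil UMIs, a limit that counts S100a9 itself. The cause of these differences was not tested. A share under 10 cells and a gene under 20 UMIs gave no value. The alternatives beyond the planned ones (kind of cell, neutrophil UMIs, mitochondrial share) were chosen after seeing the data. Of single-gene ratios 468 stayed within the main counting interval, 141 left it and 13 of called genes changed direction. Changes of direction in genes not called in the main comparison were not counted apart. Over all selected cells Ccl22, Cd40 and Atf3 changed direction in this way with cells thinned before selection, and such ratios are among the 468 and 141. Genes with under about 10 UMIs in Mgl2DTR are limited by depth.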
